A study of Mus musculus with 12 samples.

Results

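Meiotic entry regulators are described here as the 5 genes Stra8, Gm4969, Meioc, Ythdc2 and Ccnb3, found by gene symbol among the 54532 rows of the count table, 36214 of which had a count in at least 1 library. RNA was measured by bulk RNA-seq in 12 libraries of cells sorted from fetal mouse ovaries on embryonic day E15.5. The labels give 4 groups of 3 biological replicates, namely germ cells (sorted as GFP-positive) and somatic cells (the GFP-negative remainder) after dexamethasone (dex), a synthetic ligand for the glucocorticoid receptor, and the same pair of sorted populations after saline. Dex was given to the pregnant dams at 10 µg per g of body weight by intraperitoneal injection once a day from E12.5 to E15.5, and control dams received an equal volume of saline on the same days. Every library, saline and somatic included, came from the Tg(Pou5f1-EGFP)2Mnn strain, in which Pou5f1 (OCT4) regulatory sequence drives GFP in germ cells, so a cell was sorted by the reporter and not by meiotic stage. Each replicate pooled ovaries of several litters, and dex reached the dam, the somatic cells and the germ cells at once.

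Entry into meiosis in the fetal ovary follows signals from somatic cells, among them retinoic acid and bone morphogenetic proteins. STRA8 is the protein induced by retinoic acid in germ cells, and it acts on promoters together with MEIOSIN, the product of Gm4969 (Bhmg1 in RefSeq), to switch on genes of meiotic prophase. MEIOC and the RNA helicase YTHDC2 form a complex in the cytoplasm that lowers the transcripts of the mitotic program. CCNB3 is a B-type cyclin of germ cells that is needed later, for the oocyte to leave the first meiotic metaphase. In the ovary, Stra8 is expressed as a short wave while germ cells enter prophase.

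Depth ranged from 14658503 to 17616664 counts in germ cell libraries and from 15161804 to 18245507 in somatic libraries. Levels are in CPM, the usual depth-scaled count, with library totals adjusted by TMM factors, and 3 counts, taken as the floor of detection, were worth 0.169 to 0.201 CPM. The sort was checked on markers. The 9 germ cell markers summed to between 2578 and 3114 CPM in germ cells and to between 10.2 and 30.4 CPM in somatic cells, where Pou5f1 had a mean of 0.062 CPM after saline and no count after dex. Of these markers, Dnd1 and Tfap2c were low in both populations (at most 4.2 CPM in any library). Their saline means were lower in germ cells, at 1.96 against 3.22 CPM for Dnd1 and 1.45 against 1.91 CPM for Tfap2c. After saline 7 of the 9 were called higher in germ cells and 1 lower (edgeR, adjusted p at most 0.05), beside 43.1% and 42.9% of all genes. The 6 stromal markers went the other way, with 14247 to 18501 CPM in somatic cells and 94.3 to 203 CPM in germ cells. The 7 pregranulosa markers were less far apart. They summed to 577 to 797 CPM in somatic cells and to 22.1 to 98.7 CPM in germ cells, with both germ cell extremes in dex libraries. The part of somatic RNA in the germ cell libraries was not tested.

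All 5 genes are annotated as protein coding, and the start and end given in the deposited table were those of GENCODE M21 on GRCm38 (mm10). Stra8 (ENSMUSG00000029848) lies on the plus strand at chr6:34920163-34939344, Meioc (ENSMUSG00000051455) on the plus strand at chr11:102663716-102682237 and Ythdc2 (ENSMUSG00000034653) on the plus strand at chr18:44827746-44889724. Gm4969 (ENSMUSG00000085601) lies on the minus strand at chr7:19099046-19118368 and Ccnb3 (ENSMUSG00000051592) on the minus strand at chrX:6979652-7041619. No other annotated gene overlapped any of the 5 on either strand (0 overlapping genes each), so reads of an antisense or nested gene do not enter these counts. The exon length used for counting ran from 1803 bases in Stra8 to 8878 bases in Ythdc2, with 4566 bases in Ccnb3, 4616 in Meioc and 4695 in Gm4969.

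Promoter windows in RefSeq (GRCm38.p6) were available for 4 of the 5 genes and were searched from -250 to 50 bases around the RefSeq start, on both strands, for letters linked to factors that act on or through these genes. They are shown because the transcription factor pair of the group differs in them. The window of Stra8 held AGGTCA, a half-site of retinoic acid receptors, at -194 and again at -38. Of all 32851 windows of this length, 16.3% held that half-site and 1.81% held it more than once. In the lines below capitals mark the half-site. Both stretches lie in an exon of a GENCODE transcript that starts further upstream, on the plus strand, at chr6:34920742-34920771 and chr6:34920898-34920927.

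Stra8 at -206 to -177: gatggggtgaaaAGGTCAtcttgctccttc
Stra8 at -50 to -21: gcctggggtaccAGGTCAgttttttacctg

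The window of Gm4969 held other letters. CNCCTCAG, a motif linked to STRA8 binding, stood at -44 and was held by 7.94% of all windows. CACGTG, an E-box, stood at -171 and was held by 7.15%. TCCCGC, a site of the E2F type, stood on the reverse strand at -184, -178 and -70 and was held by 20% of windows. In the sequence below, read 5′ to 3′ along the minus strand at chr7:19118369-19118594, capitals mark these letters, and the adjoining pair of E2F-type matches runs on without a gap.

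Gm4969 at -250 to -25: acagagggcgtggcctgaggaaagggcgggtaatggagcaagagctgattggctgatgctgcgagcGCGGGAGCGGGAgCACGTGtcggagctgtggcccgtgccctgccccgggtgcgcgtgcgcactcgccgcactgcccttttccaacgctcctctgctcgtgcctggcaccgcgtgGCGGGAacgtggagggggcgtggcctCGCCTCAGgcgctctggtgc

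The Meioc window held a single E2F-type match, at -228, and the Ccnb3 window held none of the motifs searched. AGAACA, a half-site of the glucocorticoid receptor, was in none of the 4 windows (0 matches each) and in 19% of all windows, and its inverted repeat with 3 bases between the half-sites was likewise absent from the 4 and present in 0.00913% of all. A match is a run of letters and not a bound site, and these windows say nothing of elements further away.

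In germ cells the 5 genes spanned more than an order of magnitude per length of transcript. On the scale of the deposited FPKM (fragments scaled to exon length and library depth), saline germ cells had 164 ± 18.0 FPKM of Ccnb3 and 161 ± 8.28 FPKM of Meioc (SD, n = 3). These leading genes overlapped between libraries and their order after saline is not resolved. Gm4969 followed at 77.4 ± 11.8 FPKM, Ythdc2 at 35.7 ± 2.76 FPKM and Stra8 at 12.7 ± 4.91 FPKM, and the libraries of each of these neighbours did not overlap. After dex the order was Meioc at 150 ± 7.43, Ccnb3 at 139 ± 5.97, Gm4969 at 98.5 ± 9.57, Ythdc2 at 35.7 ± 2.01 and Stra8 at 12.8 ± 6.81 FPKM, with no neighbours overlapping. The leading pair was barely apart, with the lowest Meioc library at 142.8 FPKM and the highest Ccnb3 library at 142.6 FPKM. Its order is therefore not resolved after dex either. Meioc exceeded its partner Ythdc2 in every germ library per length, and Gm4969 exceeded its partner Stra8 in every germ library.

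**Figure D1:**
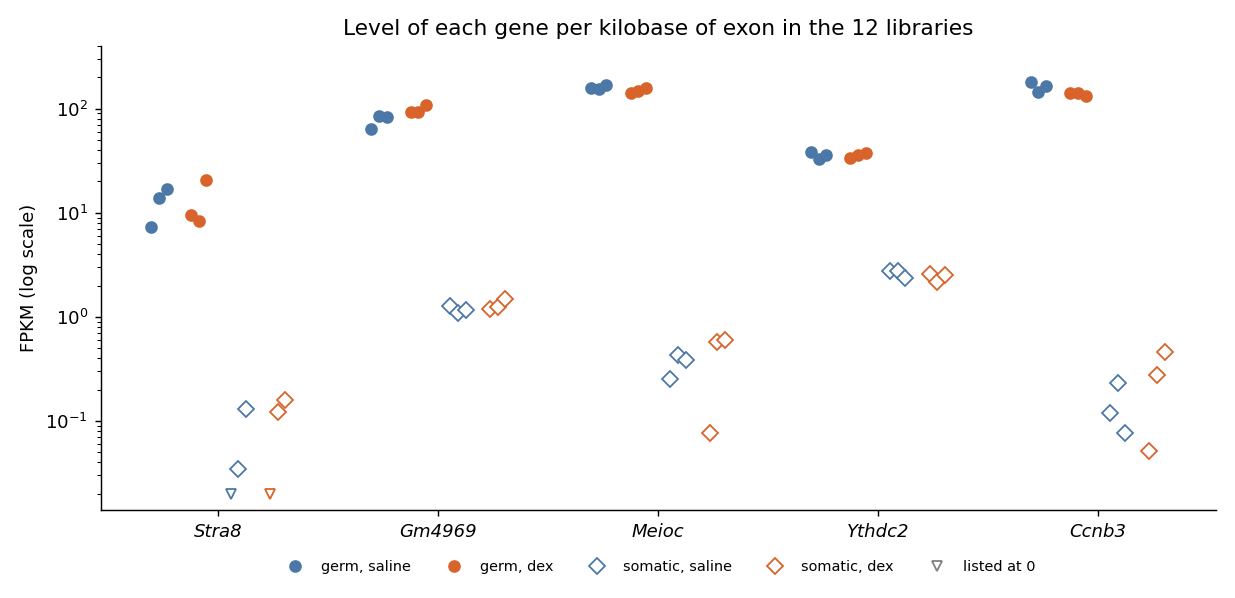
FPKM (fragments scaled to exon length and library depth, log scale) of each gene in the 12 libraries, 1 point per library, with filled circles for germ cells and open diamonds for somatic cells, blue for saline and orange for dex. Every germ library lies above every somatic library for each gene, and open triangles mark the Stra8 libraries listed at 0, drawn at the bottom of the axis.

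Germ cells were compared with somatic cells after saline, and again after dex, to show where each gene is transcribed. All 5 genes were higher in germ cells after saline, where 43.1% of 17941 genes tested were called higher in germ cells and 42.9% were called lower (edgeR quasi-likelihood test, Benjamini-Hochberg (BH) adjusted p at most 0.05). After dex the count was again 5 of 5, against 42% of 18171 genes. The direction alone therefore says little, and the size of the difference separates the genes. Their median log2 difference was 7.68 after saline, against 0.0047 over all genes tested. In bulk libraries fewer cells of a type and less RNA per cell cannot be told apart, and this holds for every comparison here.

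Ccnb3 had the largest difference of the 5. Its counts in somatic cells were 9, 17 and 6 after saline and 4, 23 and 37 after dex, beside 9937 to 13028 in germ cells. Germ cells exceeded somatic cells by a log2 difference of 10.11 (SE 0.18, adjusted p = 1.96e-15 in edgeR) after saline and 8.96 (SE 0.29, adjusted p = 2.74e-10) after dex. For Meioc the somatic counts were 19, 32 and 30 after saline and 6, 48 and 49 after dex, and the log2 difference was 8.77 (SE 0.13, adjusted p = 9.87e-16 in edgeR) and 8.40 (SE 0.32, adjusted p = 8.28e-10). The somatic level of both genes was under 0.5% of the germ cell mean in every library.

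Stra8 was close to absent from somatic cells, with 0, 1 and 4 counts after saline and 0, 4 and 5 counts after dex. Summed over the 3 libraries of a group and scaled for depth, germ cells held 220 times the somatic count after saline (exact 95% interval 94.1 to 680, from 1153 and 5 counts) and 134 times after dex (70.3 to 294, from 1121 and 9 counts). These intervals cover counting error only. The fitted log2 differences were 7.68 (SE 0.50, adjusted p = 1.48e-09 in edgeR) and 6.96 (SE 0.58, adjusted p = 5.51e-07), and they depend on how counts near 0 are handled.

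Gm4969 and Ythdc2 were measurable in both populations. Gm4969 had 97, 82 and 93 counts in saline somatic cells and 96, 106 and 122 in dex somatic cells, which is 1.25% to 1.70% of the germ cell mean. Its log2 difference was 6.0 (SE 0.14, adjusted p = 1.18e-14 in edgeR) after saline and 6.17 (SE 0.12, adjusted p = 2.33e-11) after dex. Ythdc2, whose helicase is also made outside the germline, had 357 to 403 counts after saline and 347 to 397 after dex in somatic cells, or 6.17% to 8.08% of the germ cell mean. Its log2 difference was the smallest of the 5, at 3.72 (SE 0.09, adjusted p = 2.65e-14 in edgeR) after saline and 3.82 (SE 0.09, adjusted p = 5.07e-11) after dex. The comparisons with and without dex use separate libraries.

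**Figure D2:**
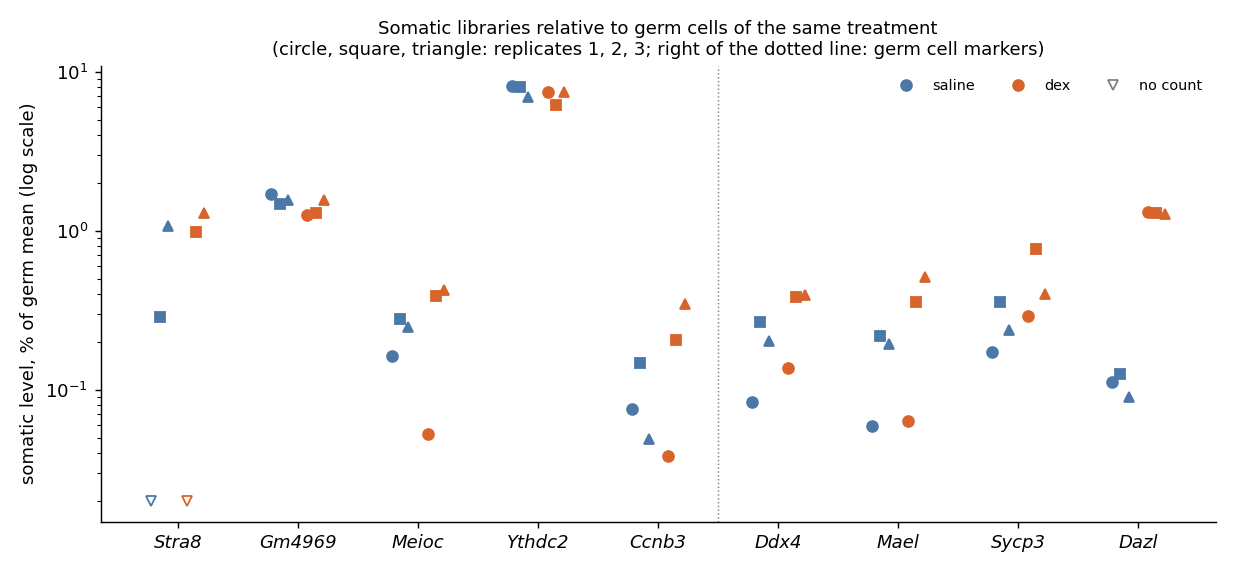
Level of each gene in the 6 somatic libraries as a percent of its mean in germ cells of the same treatment (log scale), beside 4 germ cell markers to the right of the dotted line, with blue for saline, orange for dex, and the circle, square and triangle for replicates 1, 2 and 3. Meioc, Ccnb3, Ddx4 and Mael were lowest in dex replicate 1 within the dex group, whereas Gm4969 and Ythdc2 stayed within 1.25% to 1.70% and 6.17% to 8.08%.

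The somatic shares of Meioc and Ccnb3 varied several-fold between dex libraries, as did those of some germ cell markers, while the shares of Gm4969 and Ythdc2 kept to narrower ranges. Ddx4, a germline RNA helicase, was at 0.0835% to 0.267% of its germ cell mean in saline somatic libraries and 0.138% to 0.396% in dex somatic libraries. Meioc was at 0.163% to 0.281% and 0.0525% to 0.422%, and Ccnb3 at 0.0490% to 0.148% and 0.0381% to 0.347%. In dex replicate 1, where Meioc was at 0.36 CPM and Ccnb3 at 0.24 CPM, Ddx4 was at 0.79 CPM and Mael at 0.30 CPM, whereas in dex replicate 3 they were at 2.92, 2.20, 2.26 and 2.44 CPM. The 8 germ cell markers other than Dazl summed to 8.41, 14.8 and 17.8 CPM in the dex somatic libraries and to 9.01, 14.7 and 9.35 CPM in the saline ones. Other markers went otherwise. Tdrd1 was at 1.37%, 0.958% and 2.84% of its germ cell mean in the dex somatic libraries, Dazl was at 1.31%, 1.30% and 1.28%, and in the saline group Ccnb3 was lowest in replicate 3 whereas Ddx4 and Mael were lowest in replicate 1. The part of germ cell RNA in the somatic levels of the 5 genes was not tested.

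The question of the main comparison was whether dex given to the dam changed these genes in germ cells. None of the 5 was called in germ cells (0 of 5, edgeR), beside 0.208% of the 16857 genes tested (35 genes). At an unadjusted p under 0.05 there were 2 of the 5, Gm4969 and Ccnb3, beside 11.6% of all genes tested, and DESeq2 called 1 of the 5, Gm4969, where 1.12% of 14241 genes were called. The median log2 fold change of the 5, dex over saline, was 0.02, against 0.01 over all genes tested.

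Stra8, the upstream gatekeeper, varied more between libraries of a group than between the group means. It was at 13.1, 24.8 and 30.04 CPM in the saline libraries and at 17.5, 14.9 and 36.8 CPM in the dex libraries. The groups overlapped in part, with saline replicate 1 below all dex libraries and dex replicate 3 above all saline libraries, and the highest and lowest of the 6 differed by 2.80 times. The log2 fold change was 0.03 (SE 0.32, adjusted p = 0.98 in edgeR), and it became -0.49 without dex replicate 3 and -0.24 without saline replicate 1. Within its groups the SD of log2 CPM was 0.66, against a median of 0.11 over the 9167 genes with at least 10 CPM in germ cells, of which 0.469% varied more.

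Gm4969, the partner of STRA8, was the only one of the 5 whose groups did not overlap in germ cells on the CPM scale, and they were apart in FPKM too. Its level was 298, 397 and 386 CPM after saline and 443, 438 and 508 CPM after dex. All dex libraries thus lay above all saline libraries, a separation in either direction that 17.4% of the 16857 genes also showed. The log2 fold change was 0.37 (SE 0.10) with an unadjusted p of 0.00343 and a BH-adjusted p of 0.218 in edgeR, so the difference did not pass. DESeq2 gave 0.37 with an adjusted p of 0.0245, and edgeR with no filter on low counts, where 1.27% of 33150 genes were called, gave 0.36 with an adjusted p of 0.000141. Over the edgeR and DESeq2 alternatives together the adjusted p ran from 0.000141 to 0.481 and the log2 fold change from 0.25 to 0.44.

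Both genes of the MEIOC and YTHDC2 pair had small fold changes. Meioc was at 721, 715 and 773 CPM after saline and at 674, 682 and 718 CPM after dex. The highest dex library lay between the lower saline libraries, and the log2 fold change was -0.08 (SE 0.06, adjusted p = 0.639 in edgeR). Ythdc2 was at 338, 291 and 313 CPM after saline and at 305, 317 and 330 CPM after dex, with groups that overlapped fully and a log2 fold change of 0.02 (SE 0.07, adjusted p = 0.928 in edgeR). Meioc was also the steadiest of the 5 between libraries, with a within-group SD of log2 CPM of 0.06, beside 0.09 for Ythdc2, 0.13 for Ccnb3 and 0.18 for Gm4969.

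Ccnb3, the cyclin, had a fold change opposite in sign to that of Gm4969. It was at 823, 663 and 745 CPM in the saline libraries and at 666, 645 and 595 CPM in the dex libraries. The groups touched in CPM, since dex replicate 1 lay just above saline replicate 2. In the deposited FPKM they were apart, with 181, 145 and 166 FPKM after saline and 143, 142 and 132 FPKM after dex. The log2 fold change was -0.22 (SE 0.08) with an unadjusted p of 0.0196 and an adjusted p of 0.338 in edgeR, and DESeq2 gave -0.22 with an adjusted p of 0.196. The difference therefore did not pass under either tool. Without saline replicate 1 the log2 fold change was -0.14 (unadjusted p = 0.0829), and without dex replicate 3 it was -0.18 (unadjusted p = 0.0702), both by edgeR.

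**Figure D3:**
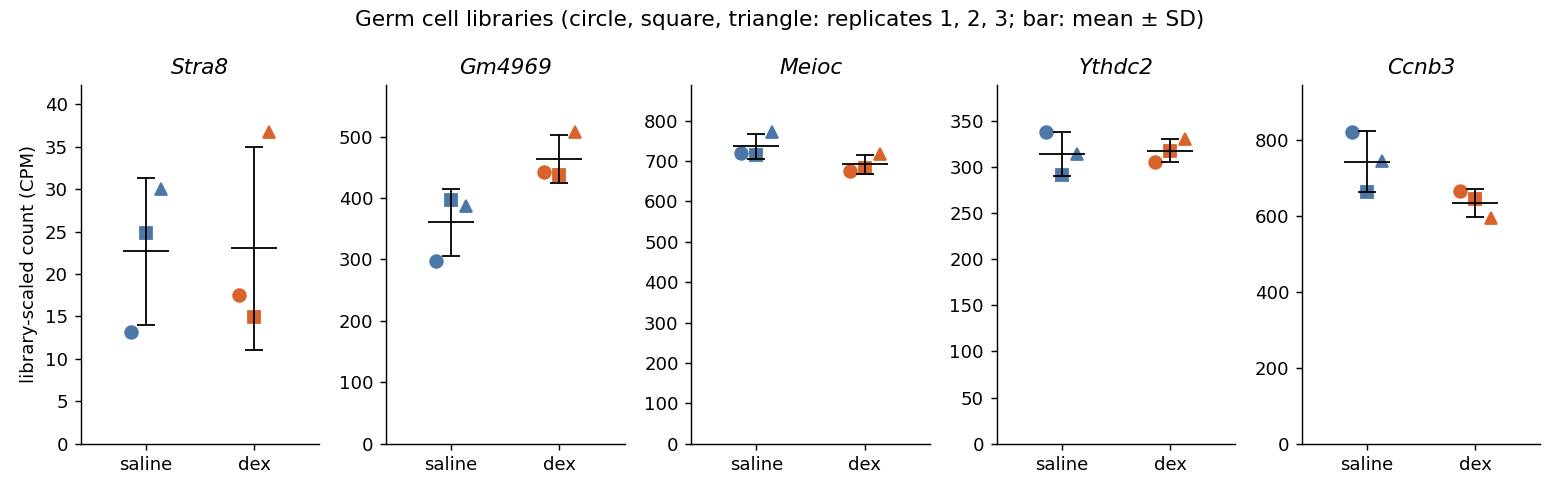
Library-scaled counts (CPM, linear axes from 0) of the 5 genes in the 6 germ cell libraries, saline in blue and dex in orange, with the mean and SD of 3 libraries as black bars. Gm4969 is the panel in which all dex points (438 to 508) lie above all saline points (298 to 397), and Stra8 has the widest scatter for its level (13.1 to 36.8).

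Gm4969 and Ccnb3 were also set against each other within each library, a ratio chosen after the values were seen and not tested. For every Ccnb3 count there were 0.361, 0.599 and 0.518 counts of Gm4969 in the saline germ libraries and 0.665, 0.679 and 0.853 in the dex germ libraries, so the ratio was higher in each dex library than in any saline library. The ratio of Gm4969 to Meioc counts behaved likewise, at 0.413, 0.555 and 0.500 after saline and 0.657, 0.642 and 0.707 after dex. Neither ratio depends on how libraries were scaled.

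Across the 6 germ cell libraries, log2 levels of Gm4969 and Ccnb3 had a Pearson r of -0.95, and after removal of each group's mean it was -0.89. Stra8 and Gm4969 had r = 0.56, and 0.91 after removal of the group means, while Stra8 and Ccnb3 had -0.48 and -0.73. Library saline 1 was lowest in Stra8 and Gm4969 and highest in Ccnb3, and library dex 3 was highest in Stra8 and Gm4969 and lowest in Ccnb3. These are descriptions over 6 points that share libraries and scaling. Meioc and Ythdc2, whose proteins work as a complex, had r = 0.15, and 0.34 after removal of the group means.

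**Figure D4:**
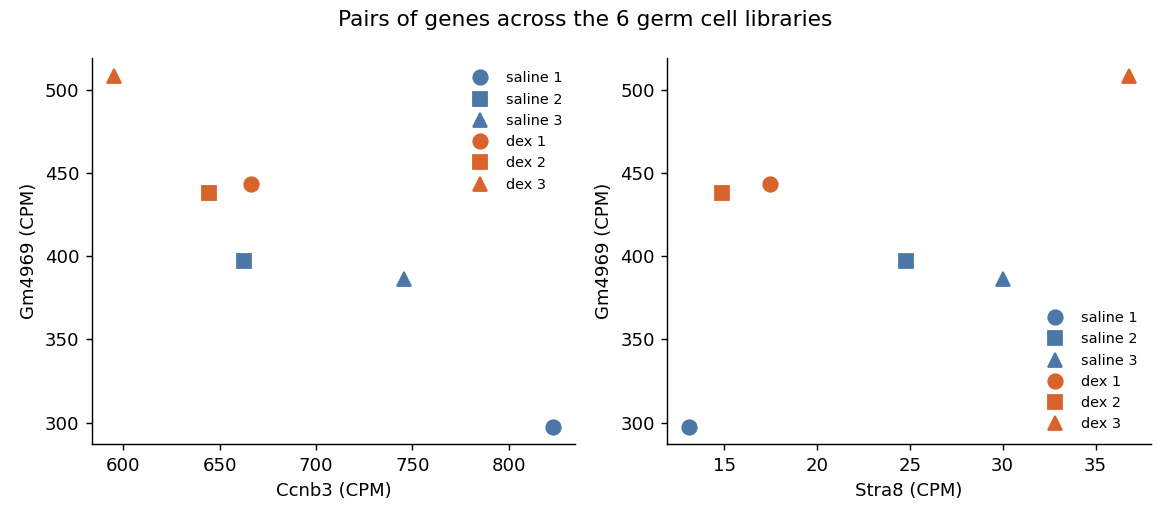
CPM of Gm4969 against Ccnb3 (left) and against Stra8 (right) in the 6 germ cell libraries, 1 point per library, blue for saline and orange for dex, with axes that do not start at 0. The left panel descends from saline 1 (298 CPM of Gm4969, 823 of Ccnb3) to dex 3 (508 and 595), and in the right panel saline 1 and dex 3 are the extremes of both genes.

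In somatic cells 4 of the 5 genes had enough counts to be tested, and Stra8 did not pass the filter on low counts. None of the 4 was called (0 of 4, edgeR, and 0 by DESeq2), beside 8.18% of the 16556 genes tested by edgeR and 9.92% by DESeq2. At an unadjusted p under 0.05 in edgeR there were 0, beside 20.9% of all genes. The dex and saline libraries overlapped for each of the 4, whereas they were apart for 25.4% of genes. Gm4969 was at 6.11, 5.29 and 5.65 CPM after saline and at 5.81, 5.98 and 7.26 CPM after dex (0.16 ± 0.19 SE in log2, adjusted p = 0.704 in edgeR). Ythdc2 was at 25.4, 25.1 and 21.7 CPM and at 23.5, 19.6 and 23.6 CPM (-0.12 ± 0.11 SE in log2, adjusted p = 0.627 in edgeR). Both genes overlapped between the groups.

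Meioc and Ccnb3 rested on few counts in somatic cells. Meioc was at 1.20, 2.07 and 1.82 CPM after saline and at 0.36, 2.71 and 2.92 CPM after dex, with the lowest and the highest library both in the dex group (0.24 ± 0.55 SE in log2, adjusted p = 0.857 in edgeR). Ccnb3 was at 0.57, 1.10 and 0.36 CPM after saline and at 0.24, 1.30 and 2.20 CPM after dex (0.88 ± 0.66 SE in log2, adjusted p = 0.508 in edgeR). Without somatic dex replicate 1, the library lowest in both, the log2 fold changes were 0.73 (adjusted p = 0.314) and 1.36 (adjusted p = 0.191). Without somatic dex replicate 3, the library highest in both, they were -0.13 (adjusted p = 0.936) and 0.21 (adjusted p = 0.909).

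The dex effect in germ cells was then tested against that in somatic cells, over all 12 libraries. The fit treated these libraries as independent and did not pair each germ library with the somatic library of its number and treatment. The alternative with a replicate block put dex and saline libraries of a number in the same block, so it did not model such pairs either. None of the 4 genes with enough counts in both cell types was called (0 by edgeR and 0 by DESeq2). Of all genes, edgeR called 1.62% of 19390 and DESeq2 called 647 of the 15627 with an adjusted p. At an unadjusted p under 0.05 there was 1, Ccnb3, beside 15.4% of all genes. Stra8 passed the filter through its germ cell counts alone, and with 5 and 9 counts in somatic cells its difference is not interpretable (-2.18 to -0.11 leaving out 1 library at a time). Ccnb3 had the largest difference, with a log2 fold change lower by 1.12 in germ cells than in somatic cells (germ minus somatic -1.12, SE 0.53, unadjusted p = 0.0499, adjusted p = 0.324 in edgeR). With no filter on low counts, where 2.01% of 36214 genes were called, its adjusted p was 0.0141. Without somatic dex replicate 1 the difference was -1.58 with an adjusted p of 0.0561, and without somatic dex replicate 3 it was -0.44 with an adjusted p of 0.761. For the other genes it was 0.20 in Gm4969, 0.13 in Ythdc2 and -0.34 in Meioc, with adjusted p from 0.653 to 0.764 in edgeR.

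**Figure D5:**
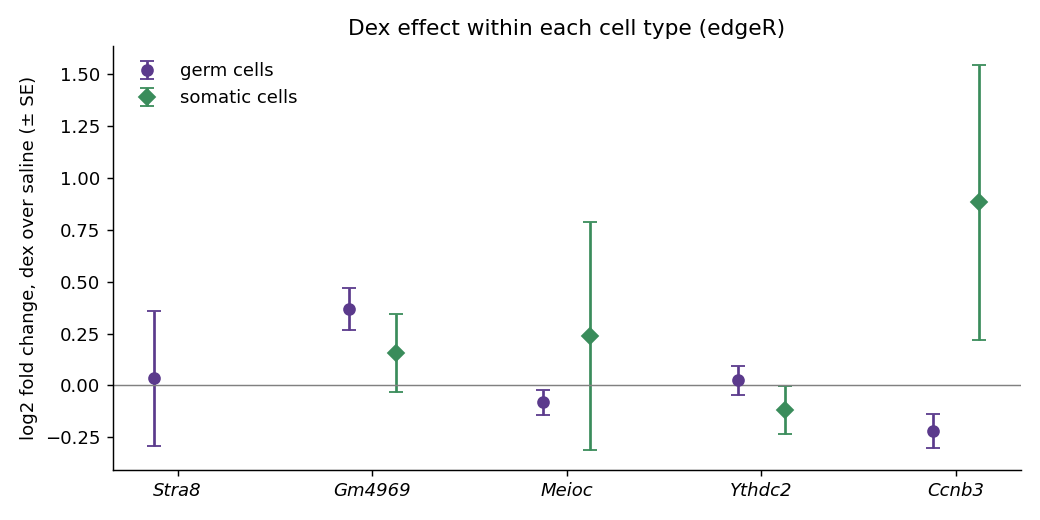
Log2 fold change of dex over saline with its SE for each gene, in germ cells (purple circles) and in somatic cells (green diamonds), as fitted by edgeR with 3 libraries a group. Gm4969 in germ cells lies at 0.37 ± 0.10, Ccnb3 has the widest split between cell types (-0.22 and 0.88), and Stra8 has no somatic point because it did not pass the filter on low counts.

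The signals that act upstream of Stra8 were looked up as lists chosen with earlier results of these data known. They held retinoic acid genes, bone morphogenetic protein genes and gatekeepers of meiotic entry. The gatekeepers included the germ cell factor Dazl and the subunits of repressive chromatin complexes. In germ cells 0 of 11 tested retinoic acid genes, 0 of 15 tested bone morphogenetic protein genes and 0 of 17 tested gatekeepers were called by edgeR. The share called over all genes tested was 0.208%. At an unadjusted p under 0.05 there were 2, 2 and 1, beside 11.6% of all genes, and DESeq2 called 1.12% of all genes with an adjusted p. In these lists DESeq2 called 0, 0 and 1, the last being Rnf2, a catalytic subunit of Polycomb complexes. It was at 185 ± 10.7 CPM after saline and 154 ± 2.48 CPM after dex (log2 fold change -0.26, DESeq2 adjusted p = 0.0435). The medians of the 3 lists were 0.11, 0.03 and -0.05, against 0.01 over all genes.

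In somatic cells, where these signals are made, 3 of 13 tested retinoic acid genes rose and 2 fell after dex, where 797 of all 16556 genes rose and 557 fell (8.18% in all). Cyp26b1, the enzyme that degrades retinoic acid, rose from 16.3 ± 2.13 to 27.4 ± 1.27 CPM over 3 libraries each (0.74 in log2, adjusted p = 0.00159 in edgeR). Aldh1a1, an enzyme that makes it, rose by a log2 fold change of 0.51 (SE 0.12) and the retinol transporter Stra6 by 0.29 (SE 0.07), whereas the binding proteins Crabp1 and Crabp2 had -0.44 (SE 0.11) and -0.75 (SE 0.15). Among bone morphogenetic protein genes 3 of 16 rose, namely Msx2 (0.96), Smad9 (0.70) and Bmpr2 (0.25), and the target genes Id1 (-0.30) and Id3 (-0.24) fell, against the same 8.18%. The medians of these lists were -0.02 and -0.04, against 0.00014 over all genes.

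Of 17 tested gatekeepers 2 rose in somatic cells and none fell (0), a share near the 8.18% of all genes. They were Dazl, an RNA-binding protein that licenses germ cells for meiosis, and the DNA demethylase Tet1, at 54.2 ± 4.22 and 72.4 ± 5.08 CPM. Dazl went from 1.17 ± 0.19 to 12.8 ± 0.13 CPM (3.43 ± 0.21 SE in log2, adjusted p = 2.92e-07 in edgeR), with all dex libraries above all saline libraries, while its level in germ cells was 1074 ± 43.9 CPM after saline and 983 ± 37.0 CPM after dex. The other 6 germ cell markers tested were not called in somatic cells. In the same comparison, where 8.18% of all genes were called, 3 of 4 macrophage markers fell (Adgre1 -1.78, Cx3cr1 -1.38 and Csf1r -1.31). A single gene was called in each of 4 other lists. Cdh5 (-0.50), 1 of 4 endothelial markers, and Wnt4 (-0.24), 1 of 7 pregranulosa markers, fell. Cspg4 (1.06), 1 of 3 perivascular markers, and Pdgfra (0.62), 1 of 6 stromal markers, rose, and 0 of 5 erythroid markers were called. The part of a changed cell mixture in these values was not tested.

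The partners of the MEIOC and YTHDC2 pair were followed together with the writers, readers and erasers of N6-methyladenosine, the RNA mark that YTHDC2 binds. None of the 13 was called after dex in germ cells or in somatic cells (0 by edgeR and 0 by DESeq2 in both, 3 in each at an unadjusted p under 0.05). Of all genes, edgeR called 0.208% in germ cells and 8.18% in somatic cells, and DESeq2 called 1.12% and 9.92%. At the unadjusted cut the shares were 11.6% and 20.9%. Rbm46, a germline RNA-binding protein that joins the pair, was at 82.3, 83.6 and 80.6 CPM in saline germ cells and at 76.8, 74.0 and 70.6 CPM in dex germ cells, where the groups did not overlap, with a log2 fold change of -0.15 (adjusted p = 0.41 in edgeR). Xrn1, the exonuclease bound by YTHDC2, had germ cell means of 93.5 CPM after saline and 93.9 CPM after dex. Between cell types 8 of the 13 were higher in saline germ cells and 2 lower, against the shares of 43.1% and 42.9% given above. They ranged from the eraser Alkbh5 at a log2 difference of 2.10 and the reader Ythdf2 at 2.03 to the eraser Fto at -1.60, with Rbm46 at 1.55.

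Cyclins and their kinases, the D-type and E-type ones included, gave 4 higher and 8 lower of 13 in saline germ cells. Over all genes tested the shares were 43.1% and 42.9%. Whether MEIOC and YTHDC2 act on these levels was not tested. Ccna2, the S-phase and mitotic cyclin, was at 50.6 CPM in germ cells and 72.0 in somatic cells (log2 difference -0.50, adjusted p = 1.4e-05 in edgeR), and Ccnb1 at 13.3 and 60.3 CPM (-2.16). The D-type cyclins Ccnd2 (-5.69), Ccnd3 (-4.36) and Ccnd1 (-3.38) were the lowest. Ccne2 (3.64), Ccna1 (3.04), Ccnb2 (1.46) and Cdk2 (0.52) were the 4 that were higher in germ cells, each by less than Ccnb3. After dex 0 of 13 in germ cells and 0 of 12 in somatic cells were called by edgeR, with 5 and 4 at an unadjusted p under 0.05, and DESeq2 called 0 and 1, the latter Ccnd2. Over all genes the shares in germ and somatic cells were 0.208% and 8.18% by edgeR and 1.12% and 9.92% by DESeq2. At the unadjusted cut they were 11.6% and 20.9%.

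Genes of meiotic prophase, on which STRA8 and MEIOSIN act, formed the last list. After saline 31 of the 32 were higher in germ cells, where 43.1% of all genes were, and Rec8 was lower (log2 difference -1.74), with a median of 8.25. Among somatic libraries alone 21 of the 32 passed the filter on low counts, so the others entered through germ cells, where they are high. The shares over all genes in the dex comparison within germ cells were 0.208% by edgeR, 11.6% at an unadjusted p under 0.05 and 1.12% by DESeq2. Of the 32, 0 were called by edgeR, 12 had an unadjusted p under 0.05, and DESeq2 called 2. One was Sycp1, of the synaptonemal complex, at 2546 ± 156 CPM after saline and 2171 ± 44.2 CPM after dex (log2 fold change -0.23, DESeq2 adjusted p = 0.0406). The other was Msh5, of the crossover machinery, at 137 ± 21.1 and 186 ± 11.1 CPM (0.44, DESeq2 adjusted p = 0.00299). Over the 6 pathway lists 24.8% of 101 tested genes had an unadjusted p under 0.05 in germ cells, against 11.6% of all genes tested. The lists were chosen with earlier results of these data known, so these shares are a description and not a test. A higher share was not particular to germ cells. The share was 32.6% of 92 in somatic cells, against 20.9%, and 25.7% of 105 in the test of the difference, against 15.4%. In somatic cells Stag3, a cohesin subunit of meiosis, rose from 24.7 ± 2.42 to 34.6 ± 4.23 CPM (log2 fold change 0.49, adjusted p = 0.0202 in edgeR), as 1 of 21 tested, against 8.18% of all genes. DESeq2 called 3 of the 21, Stag3, Msh5 and Smc1b, where 9.92% of 15914 genes were called.

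The genes most like each of the 5 over the 12 libraries were sought by Pearson correlation of log2 CPM among 9114 genes with at least 10 CPM in saline germ cells. Because germ and somatic libraries form separate clusters, r over 12 libraries mainly reflects that split, whatever its size, and r over the 6 germ libraries is given with it. Ccnb3 was most like Sycp1 (r = 0.999 over 12 and 0.92 over 6), Rad21l (-0.15 over 6) and Rnf212b (-0.62 over 6). Stra8 was most like Uqcrc2 (0.94 over 6), Eapp (0.97) and Mrpl2 (0.96), although the saline means of Uqcrc2 were 227 CPM (germ cells) against 111 CPM (soma), a far smaller split than that of Stra8. Gm4969 was most like Smarca5 (0.75), Pi4ka (0.82) and Focad (0.74). Meioc was most like Tex101 (0.26), Taf7l (0.82) and Il18 (-0.59), and Ythdc2 was most like Krit1 (0.53), Tex15 (0.50) and Atr (0.39). So many genes had r over 0.99 with Ythdc2 (1769) and Gm4969 (1524) that the names hold little for them, whereas Stra8 had 39.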

How the data were processed

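Bulk poly-A RNA-seq of 12 libraries was analysed from the deposited files. The authors aligned read pairs to mm10 with HISAT2 2.0.5, counted fragments per gene with featureCounts 1.5.0-p3 and deposited raw counts and FPKM. Strand setting and treatment of multi-mapped reads were not given in the sources used here. The 2 tables of the authors' own DESeq2 1.20.0 comparisons (fold changes and p-values, with 36 per-library columns) were not used. Counts were tested with edgeR 4.0.16 in R 4.3.3 (quasi-likelihood, TMM, filterByExpr, BH-adjusted p at most 0.05, two-sided), with only the libraries compared, or all 12 for the difference between cell types. SEs are those implied by the F statistic. DESeq2 1.42.0, other scalings, no filter, a replicate block and leaving out each library were the alternatives. The scripts were tested on simulated data. Libraries are biological replicates pooled over litters. FPKM served only to compare genes, and log2 CPM for likeness used a prior count of 2. Named genes were the 5 members, list genes called in a dex test, the partner and cyclin lists, and the 3 most alike genes each. Rec8, Hormad1, Ddx4, Mael, Pou5f1, Dnd1, Tfap2c and the genes called by DESeq2 alone were added after their values were seen. The members and lists were chosen with earlier results of these data known. Promoter sequences are from RefSeq, GRCm38.p6.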

Additional observations from a re-analysis of the deposited data

Results flagged for a closer look

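No member of the group was called for a difference in its dex effect between germ and somatic cells by the test of the difference. In the lists around them, 4 of 105 tested genes were called, where 1.62% of all 19390 genes were (edgeR BH-adjusted p at most 0.05, all 12 libraries, germ minus somatic log2 fold change). Dazl had -3.56 (adjusted p = 1.91e-10), from a rise in somatic cells. Cyp26b1 had -2.40 (adjusted p = 0.00545), with 1.27 and 0.40 CPM in germ cells after saline and dex and 16.3 and 27.4 CPM in somatic cells. Its dex germ cell libraries, at 0.20 to 0.65 CPM, were close to the floor of detection. The part of somatic RNA in the germ cell values was not tested. Hormad1, of the meiotic chromosome axis, had -1.66 (adjusted p = 0.028), with 631 and 529 CPM in germ cells and 0.48 and 1.29 CPM in somatic cells, the latter close to the floor of detection and moving with germ cell markers whose part was not tested. Msh5 had 0.99 (adjusted p = 0.00665), with 137 and 186 CPM in germ cells and 10.6 and 7.19 CPM in somatic cells. Groups of 3 libraries were too small for a check of single outlying libraries.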

How the results depend on the processing

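Of 279 values of the 5 genes under alternatives, 269 kept their direction and side of the threshold, 3 newly passed it and 7 changed sign. Those that newly passed were Gm4969 in germ cells with no filter (0.36) and with DESeq2 (0.37), and Ccnb3 in the difference with no filter (-1.12), so that with no filter 1 member was called in each of these comparisons and with DESeq2 1 in germ cells. Changes of sign came from leaving out single libraries. The log2 fold change ran from -0.49 to 0.29 for Stra8 and from -0.035 to 0.078 for Ythdc2 in germ cells, from -0.13 to 0.73 for Meioc in somatic cells, and from -0.80 to 0.032 for Meioc in the difference. The single values were -0.49 and -0.24 for Stra8 (without dex 3 and saline 1), -0.011 and -0.035 for Ythdc2 (without dex 3 and saline 2), and -0.06 and -0.13 (without somatic dex 2 and dex 3) and 0.032 (without somatic dex 3) for Meioc. The number of genes called after dex in germ cells was 35, against 420 with no filter, 159 with DESeq2, 64 with all 12 libraries in 1 fit and 17 (without dex 2 or saline 3) to 81 (without dex 1) leaving out a library. In somatic cells it was 1354, against 803 with all 12 libraries and 754 to 1881 leaving out a library (888, 756 and 754 without saline 1, 2 and 3, 856 without dex 2). For the difference it was 314, against 727, 647 with DESeq2 and 143 (without somatic saline 3) to 384. The cause of these shifts was not tested. With the replicate block the counts were 49, 1520, 313, 15283 and 15044 in the 5 comparisons and the calls of the 5 genes did not change. Deviations of dex and saline libraries of the same number correlated by 0.0079 to 0.132 in germ cells and -0.0097 to 0.048 in somatic cells. Those of unlike number correlated by -0.0915 to 0.0613 and -0.0643 to 0.0368. Such weak values do not settle whether libraries of the same number shared more than that number. Among the somatic libraries of its treatment, each germ library correlated best with that of its own number (0.054 to 0.099).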
